A study of Nicotiana tabacum with 60 samples.

Results

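psbK and psbI are neighbouring chloroplast genes for small subunits of photosystem II (PSII), and they are 2 of the 78 chloroplast genes counted here. They were chosen by name from the tables of the series and were followed through all 10 tobacco (Nicotiana tabacum) lines and all 60 libraries. Ribosome footprints (Ribo-seq, 30 libraries) gave translation output, total RNA (RNA-seq, 30 libraries) gave transcript accumulation, and each line had 3 replicates of each kind. Footprint changes divided by RNA changes gave the change in translation efficiency.

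The labels give the Petit Havana background for every sample, and describe growth on medium with 3% sucrose up to the size of a seedling with 4 leaves. The controls pRB8c and RB70 are transplastomic lines that carry the aadA selection marker. 5 mutants were compared with the same 3 pRB8c libraries of each kind. Δ3'-psbD lacks the end of psbD and the beginning of psbC. ΔpsbJ lacks the small PSII gene psbJ. ΔpetB/D lacks petB and the start of petD together with the PSII genes psbB, psbT, psbH and psbN. ΔpetN lacks petN, a small subunit gene of the cytochrome b6f complex. ΔatpB/E, labelled as an atpB deletion, is an ATP synthase mutant. ΔpsaB carries a frameshift in the photosystem I gene psaB, was compared with RB70, and was represented by independent alleles. The labels do not assign the alleles, but by the numbering in the legends of the study replicates 1 and 2 carry the same allele and replicate 3 the other. as-ATPC expresses an antisense RNA against the nuclear ATP synthase gene ATPC and was compared with the wild type SNN. The methods of the study give soil as the growth medium of as-ATPC and SNN, so levels set between them and the other lines also differ in growth.

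PSII splits water in the thylakoid membrane around a core of PsbA (D1), PsbD (D2), PsbB (CP47) and PsbC (CP43). PsbK and PsbI are each built around a single helix that crosses the membrane. PsbI sits beside PsbA and joins the complex early, whereas PsbK sits beside PsbC and enters with it. In plant chloroplasts psbK and psbI can be read into shared transcripts, which are then cut and trimmed.

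In the tobacco chloroplast genome (RefSeq record, chromosome Pltd, forward strand) psbK, NitaCp004, spans positions 7839 to 8024, and psbI, NitaCp150, spans 8357 to 8512. Both are single exons, and 332 nucleotides lie between them. The nearest other counted genes, rps16 (a ribosomal protein) and atpA (an ATP synthase subunit), lie on the other strand. They are 1624 nucleotides upstream of psbK and 2117 nucleotides downstream of psbI. The reading frames were joined from the 50-nucleotide probes of the study's tiling array and are shown because the counts below come from windows inside them. Capitals mark the start and stop codons.
psbK: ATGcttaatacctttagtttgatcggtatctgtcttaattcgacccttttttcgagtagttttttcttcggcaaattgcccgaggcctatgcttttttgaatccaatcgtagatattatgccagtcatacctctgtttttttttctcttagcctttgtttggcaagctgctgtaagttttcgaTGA
psbI: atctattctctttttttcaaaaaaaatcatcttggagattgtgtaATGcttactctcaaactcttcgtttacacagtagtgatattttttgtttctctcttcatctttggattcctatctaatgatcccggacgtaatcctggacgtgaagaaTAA
The psbK frame is 186 nucleotides long, with 61 codons before the stop and a GC content of 37.6%. The annotated psbI frame is 156 nucleotides long, with a GC content of 33.3%, and opens with atc rather than with a start codon. Its first in-frame ATG is base 46, at position 8402, from where 36 codons remain before the stop. Of each annotated frame, 10 nucleotides at the start and 30 at the end were not counted. This left a window of 146 nucleotides for psbK and 116 for psbI, of which 35 lie before that ATG and 81 after it.

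**Figure D1:**
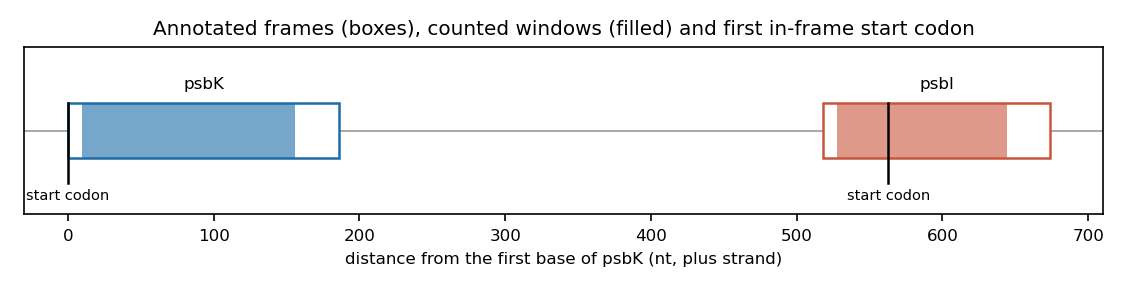
Map of psbK and psbI drawn to scale, with the distance from the first base of psbK in nucleotides along the x axis. Boxes are the annotated reading frames, shaded parts are the counted windows, and the marked start codon of psbI lies 45 nucleotides inside its annotated frame.

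Reading-frame counts per library ranged from 31328 to 5331355 for footprints and from 1029393 to 14748697 for RNA. psbK received 207 to 22270 footprints and 501 to 15800 RNA reads per library, and psbI 163 to 10774 footprints and 418 to 13830 RNA reads. The smallest counts of the footprint libraries belonged to replicate 1 of ΔpsaB. Of the genes hit in the mutants, psbJ RNA was at −8.48 in ΔpsbJ, petN RNA at −5.28 in ΔpetN, psbC footprints at −6.46 in Δ3'-psbD and atpB RNA at −5.37 in ΔatpB/E (log2, fitted values that give no bound). petD, of which only the start is deleted in ΔpetB/D, had higher RNA there (+1.04, adjusted p = 5.72e-09) with footprints at −4.52, and atpE in ΔatpB/E had RNA at +0.11 (0.647) with footprints at −1.64. psaB footprints in ΔpsaB were at −1.45 ± 0.49 (adjusted p = 0.0632), with psaB RNA at −0.023, so counts over the whole psaB frame did not separate the line from RB70. They include the part translated before the premature stop. The study reports that footprint coverage is missing downstream of that stop in both alleles. Bulk tissue was used, so fewer chloroplasts and less RNA per chloroplast cannot be told apart, and all levels are shares of chloroplast reading-frame counts.

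psbK was among the more strongly translated chloroplast genes in all lines. In counts per kilobase of counted window and 1000000 reading-frame counts, its mean footprint level ranked between 5 and 22 of the 78 genes, from 46979 ± 6410 in RB70 (SD, n = 3) to 20185 ± 6803 in ΔpsbJ. The fold between these extremes was 2.33. All 9 neighbouring pairs of lines in this order overlapped in their replicates. psbI footprint levels ranked between 11 and 29. They were highest in ΔpsaB at 42837 ± 2647, where all 3 replicates lay above the 27 libraries of the other lines, and lowest in pRB8c at 12189 ± 1432. The ΔpsaB level was the only step in the order of 10 lines at which neighbouring lines did not overlap, and the fold between the extremes was 3.51.

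The RNA levels ranked lower than the footprint levels, between 30 and 49 for psbK and between 27 and 41 for psbI. psbK RNA was highest in as-ATPC at 8602 ± 798, followed by RB70 at 8179 ± 2086 and SNN at 7382 ± 360 on the same per-length scale. The remaining 7 lines lay lower, from 4399 ± 820 in pRB8c to 2792 ± 488 in ΔpsaB, and SNN and pRB8c were the only neighbours that did not overlap. psbI RNA was also highest in as-ATPC, at 9327 ± 444, and lowest in pRB8c, at 1875 ± 242. The fold between the extremes was 3.08 for psbK and 4.97 for psbI.

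**Figure D2:**
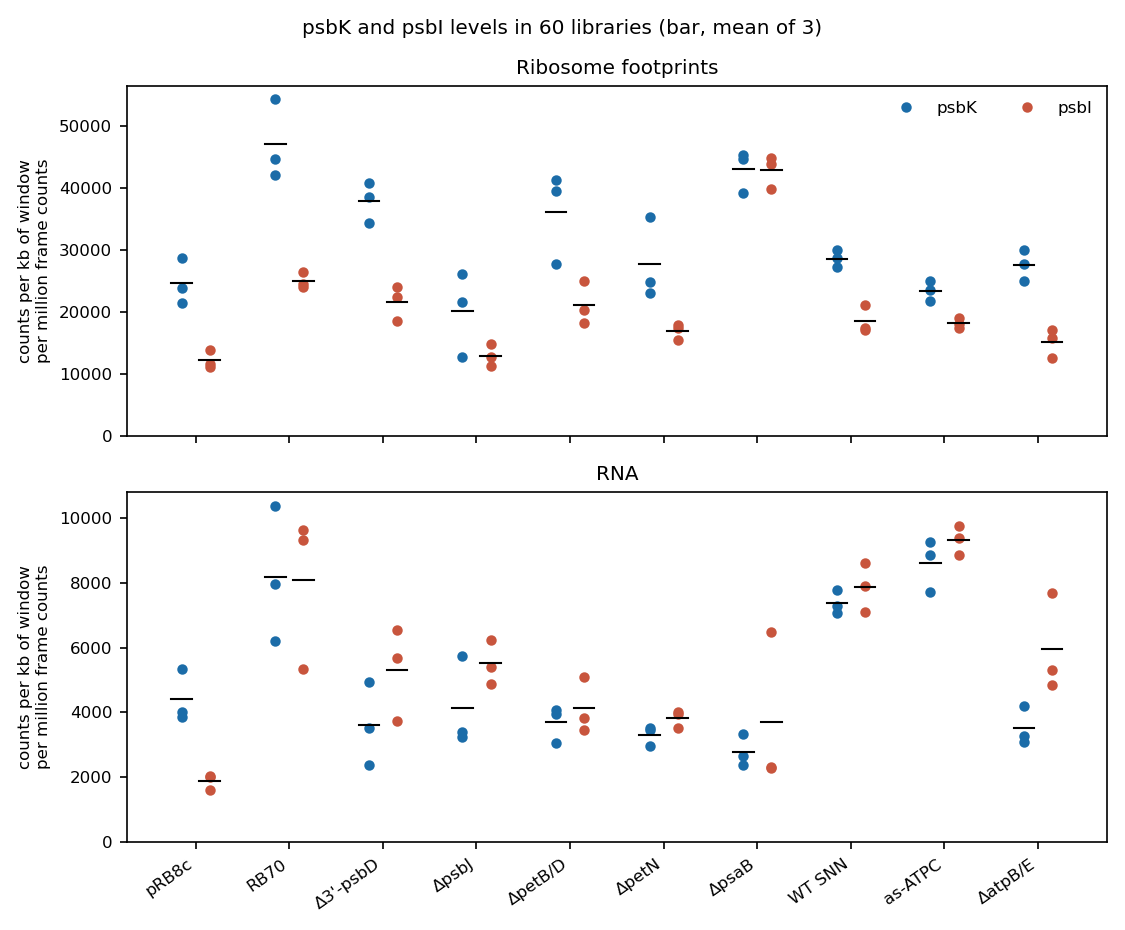
Levels of psbK and psbI in all 10 lines, as counts per kilobase of counted window and 1000000 reading-frame counts, for footprints and for RNA. Points are replicates and bars are means of 3. psbI RNA is lowest in pRB8c, psbI footprints are highest in ΔpsaB, and psbK footprints overlap between all lines that are neighbours in level.

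The RNA of the gene pair stood in a different proportion in pRB8c than in every other line. The ratio of psbK to psbI RNA counts was 3.36, 2.48 and 3.04 in the 3 pRB8c libraries. In the 27 libraries of the other lines it lay between 0.649 and 1.47, so that pRB8c did not overlap with any of them. Of the 2926 pairs that 77 genes can form, 11.5% had RNA ratios in pRB8c that did not overlap with those of the other lines, and 26.3% had a larger difference than psbK and psbI. In unscaled levels, psbI RNA and not psbK RNA stood apart in pRB8c. psbI RNA was at 232, 236 and 185 CPM (counts in 1000000 reading-frame counts) in pRB8c, below all other libraries, which ranged from 264 to 1131. This was so for 28.6% of the genes tested for RNA (22 of 77, all of them lower in pRB8c). psbK RNA in pRB8c was at 780, 585 and 562 CPM, inside the range of 348 to 1513 of the others. The shares of pairs and genes given here were counted for pRB8c only, the line in which this pair stood apart, and not for each line.

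Each of the 5 mutants compared with pRB8c therefore had a lower ratio of psbK to psbI RNA than its control, without overlap. The log2 difference was −1.80 ± 0.16 (SE) in Δ3'-psbD, −1.68 ± 0.22 in ΔpsbJ, −1.37 ± 0.18 in ΔpetB/D, −1.43 ± 0.13 in ΔpetN and −1.96 ± 0.16 in ΔatpB/E. The two-sided exact permutation p was 0.1 for each, the smallest that 3 against 3 libraries can give, and the adjusted value over 14 such tests was 0.2. Many gene pairs separated in these comparisons, namely 76.1%, 73.0%, 75.7%, 80.2% and 82.4% in the same order. A larger difference was found in 10.6% (ΔpsbJ) to 33.8% (ΔatpB/E) of pairs. These 5 differences share the pRB8c libraries. RB70 was also below pRB8c without overlap, with ratios of 1.08, 1.47 and 1.36, a log2 difference of −1.19 ± 0.19 and 78.7% of pairs separated.

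The ratio of psbK to psbI RNA did not separate the other mutants from their controls. In ΔpsaB the replicates stood at 0.649, 1.29 and 1.47, and replicate 1 lay below the 3 RB70 libraries while the others lay within or just above them. The log2 difference was −0.27 ± 0.39 (exact permutation p = 0.7, adjusted 0.754) and turned to 0.096 without ΔpsaB replicate 1. as-ATPC stood at 1.24, 1.14 and 1.10 against 1.25, 1.07 and 1.24 in SNN, with a log2 difference of −0.030 ± 0.092 (exact permutation p = 0.9). Of the gene pairs, 49.4% were separated in the ΔpsaB comparison and 78.0% in that of as-ATPC. Over all 10 lines the RNA ratio varied by line (F = 11.7, permutation p = 0.0001 from 100000 resamples). Of single genes, 100% varied by line in RNA, and the share of other gene pairs that vary is not given here.

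Footprints did not show the pRB8c shift. The ratio of psbK to psbI footprints was 2.70, 2.33 and 2.62 in pRB8c, and all 5 mutants compared with it overlapped. Their log2 differences were −0.20 ± 0.08 in Δ3'-psbD, −0.43 ± 0.25 in ΔpsbJ, −0.25 ± 0.12 in ΔpetB/D, −0.33 ± 0.20 in ΔpetN and −0.14 ± 0.09 in ΔatpB/E (exact permutation p = 0.2 each, adjusted 0.233). The shares of gene pairs separated here were 62.2%, 47.1%, 65.5%, 69.8% and 76.8%. RB70 also overlapped with pRB8c, with ratios of 2.29, 2.01 and 2.84, a log2 difference of −0.11 ± 0.16 and 44.5% of pairs separated.

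The footprint ratio instead stood apart in ΔpsaB. It was 1.27, 1.28 and 1.23 there, and between 1.43 and 2.84 in the 27 other libraries. Of the 2926 gene pairs, 1.26% had footprint ratios in ΔpsaB outside the range of all other lines, and 40.2% had a larger difference of means. These shares were counted for ΔpsaB only, the line in which this pair stood apart, and not for each line. Against RB70 the log2 difference was −0.90 ± 0.15 without overlap (exact permutation p = 0.1, adjusted 0.2), in a comparison that separated 46.4% of pairs. as-ATPC was also below SNN without overlap, with 1.70, 1.65 and 1.52 against 2.07, 2.01 and 1.78, a log2 difference of −0.27 ± 0.08 and 76.1% of pairs separated. Over the 10 lines the footprint ratio varied by line (F = 6.11, permutation p = 0.00085), as did the footprints of 97.4% of single genes. Other gene pairs were not set beside it.

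**Figure D3:**
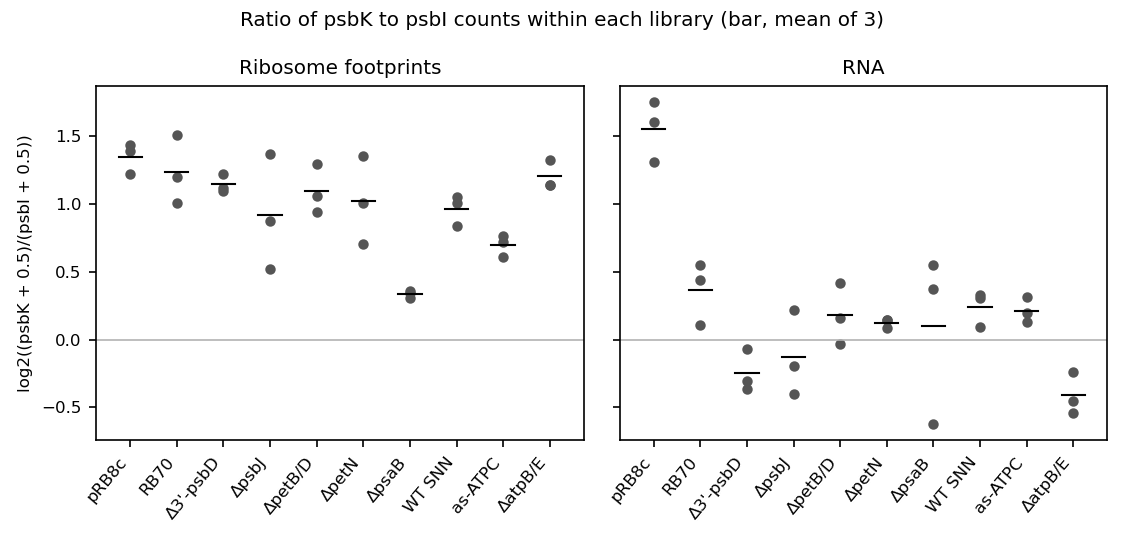
Ratio of psbK to psbI counts within each library on the log2 scale, for footprints and for RNA, by line (points, replicates and bars, means of 3). In RNA the 3 pRB8c libraries lie above all others, and in footprints the 3 ΔpsaB libraries lie below all others.

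psbK RNA was lower in all 5 mutants compared with pRB8c and in ΔpsaB. Here and below, a call means that the adjusted p of edgeR's quasi-likelihood test was at most 0.01, and counts scaled by trimmed means (TMM) within a comparison are given before it. In ΔpetN psbK RNA stood at 304, 417 and 380 scaled CPM against 962, 784 and 789 in pRB8c, a log2 change of −1.20 ± 0.15 (SE, adjusted p = 1.02e-05). In ΔatpB/E it stood at 317, 344 and 372 against 1041, 869 and 918, a change of −1.45 ± 0.14 (1.43e-05). The groups were far apart in both mutants.

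In Δ3'-psbD psbK RNA stood at 370, 523 and 322 against 927, 703 and 811 in pRB8c, and changed by −1.01 ± 0.23 (adjusted p = 0.000129). In ΔpsbJ it stood at 692, 353 and 409 against 900, 755 and 741, a change of −0.72 ± 0.18 (0.000184) in which replicate 1 of the mutant came close to the control. Without ΔpsbJ replicate 2 or 3 the call was lost (−0.54 and −0.61, adjusted p = 0.0574 and 0.0399). In ΔpetB/D it stood at 518, 479 and 432 against 830, 678 and 650, a change of −0.59 ± 0.16 (0.00116). With library sizes alone in place of TMM factors the call was lost in all 5 mutants, and psbK RNA changes lay between −0.41 and −0.092. The median gene of these 5 comparisons shifts by 0.36 to 1.15 in RNA between the scalings, so that psbK fell relative to other chloroplast RNAs.

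psbI RNA moved against psbK RNA in 4 of these 5 mutants. In Δ3'-psbD it stood at 477, 551 and 398 scaled CPM against 276, 283 and 267 in pRB8c, a change of +0.79 ± 0.23 (adjusted p = 0.00184). In ΔpsbJ it stood at 596, 468 and 469 against 267, 304 and 244, a change of +0.91 ± 0.19 (8.24e-06). In ΔpetB/D it stood at 387, 429 and 443 against 247, 273 and 214, a change of +0.78 ± 0.16 (8.11e-05). None of these groups overlapped.

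In ΔatpB/E psbI RNA stood at 461, 470 and 439 against 309, 350 and 302, a change of +0.51 ± 0.12 (adjusted p = 0.00222). In ΔpetN it stood at 286, 377 and 345 against 286, 316 and 260, and the change of +0.23 ± 0.14 was not called (0.166). The Δ3'-psbD call was lost without Δ3'-psbD replicate 1 (0.0115), or without pRB8c replicate 1 (0.0125), 2 (0.0126) or 3 (0.0171). The ΔatpB/E call was lost without ΔatpB/E replicate 2 (0.0169) or 3 (0.0151) or without pRB8c replicate 1 (0.0128). Most genes were called in RNA in these comparisons, 68.8% in Δ3'-psbD, 59.7% in ΔpsbJ, 62.3% in ΔpetB/D, 68.8% in ΔpetN and 75.3% in ΔatpB/E, so a call alone did not set psbK or psbI apart.

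The sign of the psbI RNA change depended on the control line. RB70, compared with pRB8c directly, had psbI RNA of 742, 504 and 840 scaled CPM against 280, 314 and 273, a rise of 1.27 ± 0.18 on the log2 scale (2.40-fold, adjusted p = 0.000188). It was called under all 11 alternatives run. psbK RNA did not differ by the test between these controls, at 800, 738 and 1139 against 942, 780 and 828, a change of 0.070 ± 0.17 (0.712) that turned to −0.20 without RB70 replicate 3. Of all genes, 61% were called in RNA between the controls, which differ in more than this locus. rps16 RNA, upstream of psbK on the other strand, was among them at +2.30 ± 0.16 (1.31e-06).

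Set against RB70 in place of pRB8c, all 5 mutants had lower psbI RNA. The values were −0.41 in Δ3'-psbD (adjusted p = 0.125), −0.40 in ΔpsbJ (0.0838), −0.77 in ΔpetB/D (0.00164), −0.88 in ΔpetN (0.000221) and −0.19 in ΔatpB/E (0.512). psbK RNA kept its direction and its call against RB70, at −0.9998, −0.84, −0.95, −1.12 and −0.97 in the same order. The lower psbK RNA in these mutants was thus found with either control, whereas a higher psbI RNA was found with pRB8c only. The share of all genes called against RB70 is not given here, so these calls do not set psbK or psbI apart.

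**Figure D4:**
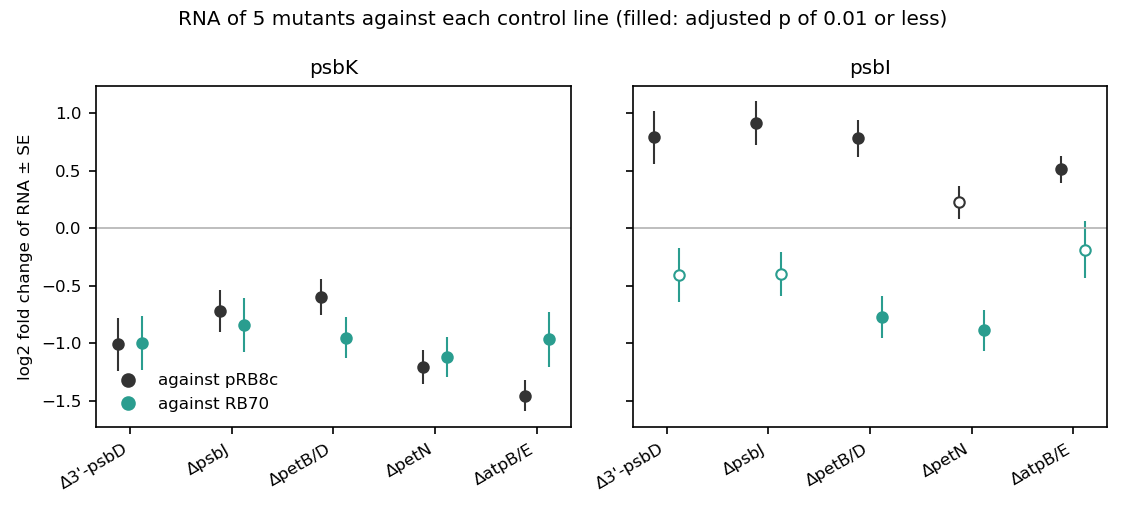
Log2 fold change of psbK and psbI RNA (± SE) in the 5 mutants, against pRB8c and against RB70. psbK lies below 0 with either control, and psbI changes sign with the control in all 5 mutants.

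In ΔpsaB both genes had less RNA than in RB70. psbK RNA stood at 296, 457 and 480 scaled CPM against 1070, 988 and 1525, a change of −1.54 ± 0.27 (adjusted p = 0.00889). In this comparison 9.09% of genes were called. The call was lost without ΔpsaB replicate 2 (0.0294) or 3 (0.0269) or RB70 replicate 1 (0.0362), 2 (0.0224) or 3 (0.0517), with values between −1.66 and −1.32. It held against pRB8c, at −1.25 (0.00333).

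psbI RNA in ΔpsaB stood at 456, 353 and 327 against 993, 674 and 1124, a change of −1.30 ± 0.26 that missed the threshold (adjusted p = 0.0121). With the replicate number as a block it was called at −1.28 (0.000376), and psbK was called at −1.54 (2.19e-05). The labels give no pairing beyond shared numbers, and the correlations of same-numbered RNA libraries were weak here (0.108 to 0.345). Without ΔpsaB replicate 1, the library with the highest unscaled psbI RNA of that line (750 CPM against 269 and 264), the change was −1.45 (7.62e-09). Against pRB8c the psbI change was 0.25 (0.447).

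In as-ATPC neither gene was called in RNA. psbK RNA stood at 1182, 1110 and 1020 scaled CPM against 1222, 1095 and 1370 in SNN, with a log2 change of −0.15 ± 0.10 (adjusted p = 0.165). psbI RNA stood at 951, 972 and 931 against 974, 1027 and 1107, with a change of −0.12 ± 0.10 (0.273). psbI groups lay apart by a narrow margin and psbK groups overlapped. Both changes became positive with library sizes alone (0.22 and 0.24). Of all genes, 63.6% were called in this comparison, so psbK and psbI were among the minority not called.

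psbK footprints were lower in all 7 mutants by their fitted values, and this was called in 2 of them. In as-ATPC psbK footprints stood at 3188 to 3636 scaled CPM against 3993 to 4412 in SNN, a change of −0.31 ± 0.067 (adjusted p = 0.000792). The groups did not overlap, and the call was lost without as-ATPC replicate 1 (0.0158). In ΔatpB/E they stood at 2922 to 3170 against 4496 to 5058 in pRB8c, a change of −0.62 ± 0.17 (0.00808). This call was lost without ΔatpB/E replicate 1 (0.0186) or 2 (0.0231) or pRB8c replicate 1 (0.017), 2 (0.0301) or 3 (0.03). Footprint calls were made for 58.4% of genes in as-ATPC and 67.5% in ΔatpB/E.

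The other psbK footprint changes were not called. They were −0.53 ± 0.15 in Δ3'-psbD (adjusted p = 0.0302), −0.39 ± 0.24 in ΔpsbJ (0.237), −0.41 ± 0.15 in ΔpetB/D (0.0576), −0.55 ± 0.23 in ΔpetN (0.0616) and −0.85 ± 0.25 in ΔpsaB (0.0413). The groups lay apart in Δ3'-psbD, ΔpetB/D and ΔpsaB and overlapped in ΔpsbJ and ΔpetN. Without ΔpetN replicate 2 the ΔpetN change was called (−0.76, 0.00229), and without ΔpsaB replicate 1 that of ΔpsaB (−0.79, 0.00981). Calls were made for 24.7% of genes in Δ3'-psbD, 14.3% in ΔpsbJ, 31.2% in ΔpetB/D, 48.1% in ΔpetN and 0% in ΔpsaB. In ΔpsaB, where edgeR called 0 genes, 27 had an unadjusted p under 0.05 and DESeq2 called 14. With library sizes alone psbK footprints were positive in Δ3'-psbD (0.62), ΔpetB/D (0.55), ΔpetN (0.17) and ΔatpB/E (0.16).

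psbI footprints were not called in any of the 7 comparisons. The changes were −0.32 ± 0.15 in Δ3'-psbD (adjusted p = 0.134), −0.024 ± 0.18 in ΔpsbJ (0.933), −0.15 ± 0.16 in ΔpetB/D (0.476), −0.27 ± 0.17 in ΔpetN (0.187) and −0.47 ± 0.18 in ΔatpB/E (0.0354). They were 0.077 ± 0.23 in ΔpsaB (0.839) and −0.054 ± 0.09 in as-ATPC (0.596). The groups overlapped except in ΔatpB/E, where the mutant stood at 1163 to 1434 scaled CPM against 1686 to 1933. Without ΔatpB/E replicate 3 that change was called (−0.73, 0.00249). The sign of the ΔpsbJ change turned without ΔpsbJ replicate 2 (0.072) or pRB8c replicate 2 (0.0032), that of ΔpsaB without its replicate 3, the library of the other allele (−0.0039), and that of as-ATPC without SNN replicate 3 (0.051). With library sizes alone the sign was positive in all 5 mutants compared with pRB8c, from 0.087 to 0.83.

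The unscaled psbI footprints of ΔpsaB stood out against the whole set of lines. They were at 4621 to 5203 CPM against 1291 to 3060 in the 27 other libraries, as was the case for 5.19% of genes (4 of 77, all of them higher in ΔpsaB). This share was counted for ΔpsaB only, the line in which psbI stood apart. psbK footprints in ΔpsaB, at 5705 to 6608, lay inside the range of the others. After TMM scaling psbI footprints stood at 3278 to 4377 in ΔpsaB against 3481 to 3864 in RB70 and overlapped, so that the height of psbI in ΔpsaB depended on the scaling. The smallest footprint library of the series, replicate 1 of ΔpsaB, gave 5203 CPM from 163 psbI footprints.

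Between the controls, footprints of both genes were higher in RB70 than in pRB8c without a call, at +0.58 ± 0.20 for psbK (adjusted p = 0.0538) and +0.67 ± 0.17 for psbI (0.0232), where 9.09% of genes were called. The groups lay apart for both. Without RB70 replicate 2 both changes were called (0.90 each, 0.0066 and 0.00709). Set against RB70, footprints of both genes were called lower in Δ3'-psbD, ΔpetB/D, ΔpetN and ΔatpB/E. psbK changes there were −0.93, −1.05, −1.24 and −1.26, and psbI changes −0.81, −0.89, −1.06 and −1.22, while those of ΔpsbJ (−1.04 and −0.76) missed the threshold (0.0167 and 0.012). No share of all genes called in footprints against RB70 is given here, so these calls do not set either gene apart.

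The translation efficiency of psbI was called lower in 4 of the 5 mutants compared with pRB8c. The change was −1.11 ± 0.23 in Δ3'-psbD (adjusted p = 0.00606), −0.93 ± 0.24 in ΔpsbJ (0.0043), −0.93 ± 0.21 in ΔpetB/D (0.00391) and −0.98 ± 0.23 in ΔatpB/E (0.0018). It was −0.49 ± 0.22 in ΔpetN (0.059). Of all genes, 11.7%, 29.9%, 29.9%, 46.8% and 48.1% were called in efficiency in Δ3'-psbD, ΔpsbJ, ΔpetB/D, ΔatpB/E and ΔpetN. In the 4 mutants psbI RNA was called higher and psbI footprints were not called.

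Many of these calls were lost when a library was left out, while the changes stayed between −1.21 and −0.75. In Δ3'-psbD the call was lost without Δ3'-psbD replicate 1 (0.0314) or 2 (0.0214) or pRB8c replicate 1 (0.0276), 2 (0.0381) or 3 (0.0371). In ΔpsbJ it was lost without ΔpsbJ replicate 1 (0.0141) or 2 (0.0185) or pRB8c replicate 1 (0.0205), 2 (0.013) or 3 (0.0288). In ΔpetB/D it was lost without ΔpetB/D replicate 2 (0.0154) or 3 (0.0405) or pRB8c replicate 1 (0.036), 2 (0.0177) or 3 (0.0143). In ΔatpB/E it was lost without ΔatpB/E replicate 2 (0.011) or pRB8c replicate 3 (0.013). Against RB70 none of the 4 was called, and the changes were −0.40, −0.36, −0.12 and −1.04.

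psbK translation efficiency had the opposite sign. It was called higher in ΔatpB/E at +0.83 ± 0.22 (adjusted p = 0.00433), a call that was lost when any library was left out: ΔatpB/E replicate 1 (0.101), 2 (0.0639) or 3 (0.0285) or pRB8c replicate 1 (0.0277), 2 (0.0237) or 3 (0.0106). Against RB70 its sign turned (−0.29). The changes elsewhere were not called, with +0.48 ± 0.26 in Δ3'-psbD, +0.33 ± 0.35 in ΔpsbJ, +0.19 ± 0.20 in ΔpetB/D and +0.66 ± 0.27 in ΔpetN. They were +0.69 ± 0.40 in ΔpsaB and −0.16 ± 0.12 in as-ATPC, where 1.3% and 39% of all genes were called. psbI efficiency was at +1.37 ± 0.37 in ΔpsaB (0.0478), called without ΔpsaB replicate 1 (1.59, 0.000582), and at 0.069 ± 0.13 in as-ATPC (0.719), where its sign turned without SNN replicate 1 (−0.023) or 2 (−0.075). Between RB70 and pRB8c it was at +0.51 for psbK (0.131) and −0.60 for psbI (0.0635), with 44.2% of genes called.

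**Figure D5:**
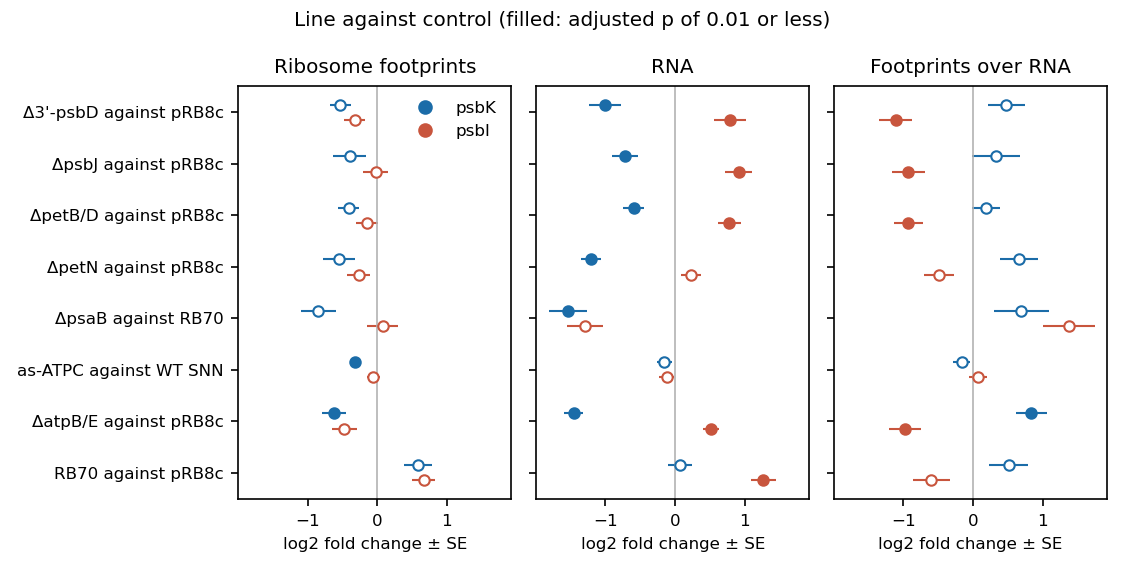
Log2 fold changes (± SE) of psbK and psbI in the 7 comparisons of a mutant with its own control and in RB70 against pRB8c. They are shown for RNA, footprints and translation efficiency, with filled points for called changes. psbK RNA is left of 0 in all 7 mutants but not in RB70. psbI RNA is right of 0 in the 5 mutants compared with pRB8c and in RB70. In these 5 mutants footprint changes of both genes are smaller than their RNA changes, except for psbI in ΔpetN.

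Within lines, the footprint ratio of the gene pair exceeded its RNA ratio in every line but pRB8c, in ΔpsaB by less than its error. The log2 of footprint ratio over RNA ratio was −0.21 ± 0.14 (SE, 3 footprint and 3 RNA libraries) in pRB8c. It ranged from 0.23 ± 0.37 in ΔpsaB to 1.61 ± 0.11 in ΔatpB/E in the other 9 lines. The share of footprints over the share of RNA, on the log2 scale, was higher for psbI (2.70 ± 0.15) than for psbK (2.49 ± 0.19) in pRB8c by less than these errors. In RB70 the same quantity was 1.68 ± 0.28 for psbI and 2.54 ± 0.24 for psbK. The psbI window includes 35 nucleotides before its first in-frame ATG, and the psbK window includes none. The effect of this on levels and ratios set between the genes was not tested.

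Both genes varied over the 10 lines when all libraries were fitted together. The adjusted p was 4.63e-05 for psbK footprints, 1.16e-07 for psbI footprints, 1.04e-08 for psbK RNA and 2.79e-07 for psbI RNA. For translation efficiency it was 0.000425 for psbK and 7.89e-08 for psbI. Nearly all genes varied in this way, with 97.4% called for footprints, 100% for RNA and 81.8% for efficiency. By the size of F among 77 genes, psbK ranked 55 for footprints and 33 for RNA, and psbI 24 and 50, so neither belonged to the most variable genes.

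The other PSII genes were set beside the psbK decrease. Of the 12 other PSII genes listed, those left intact were largely lower in RNA than in pRB8c in ΔpetN, ΔatpB/E, Δ3'-psbD and ΔpsbJ. 12 of 12 were called lower in ΔpetN, 11 of 12 in ΔatpB/E, 7 of 10 in Δ3'-psbD and 7 of 11 in ΔpsbJ, and 0 were called higher. Of all 77 genes tested, 33, 26, 22 and 20 were called lower in these comparisons and 20, 32, 31 and 26 higher. Their median log2 changes were −1.20, −1.68, −0.67 and −0.56, where the medians of all genes were −0.060, 0.15, 0.35 and 0.19. psbK RNA stood at −1.20, −1.45, −1.01 and −0.72 in the same mutants, and psbI RNA was above the PSII median in each. These comparisons share the pRB8c libraries. The control RB70 was also below pRB8c in these genes, with 9 of 12 called lower and a median of −0.82. The PSII list was not set against RB70, so its decrease, unlike that of psbK, was seen with pRB8c only. Examples are psbJ, a small subunit, at −1.73 in ΔpetN, and psbB at −2.50 in ΔatpB/E, −1.52 in Δ3'-psbD and −1.10 in ΔpsbJ. The 12 in ΔpetN include psbM, a small subunit, at −4.10. The study reports lower psbM expression there, with antisense psbM RNA read from the inserted marker.

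ΔpetB/D differed from these mutants. Of 9 PSII genes that were left intact, psbE (a cytochrome b559 subunit) was called lower at −0.57 and psbZ (a small subunit) higher at +0.75, while 16 of all 77 genes were lower and 32 higher. The median was −0.20, against 0.16 for all genes. psbK at −0.59 was level with psbE and psbI at +0.78 with psbZ, each outside the range of these 9 genes by less than its standard error. In ΔpsaB 0 of 12 PSII genes were called in RNA, where 5 of all 77 genes were lower and 2 higher, with a median of −0.65 against −0.046 for all genes. In as-ATPC 10 of 12 were called lower, with psbD at −0.56 and psbC at −0.55 and a median of −0.41, below both psbK and psbI. All 77 genes had a median of 0.10 there, with 19 called lower and 30 higher. Between RB70 and pRB8c 9 of 12 were lower in RB70, with psbA at −1.98 and psbD at −1.38, and psbI RNA at +1.27 moved the other way. The PSII median was −0.82, and all 77 genes had a median of 0.13, with 19 lower and 28 higher.

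In footprints, 1 of 10 genes of this list was called lower in Δ3'-psbD, 1 of 11 in ΔpsbJ, 2 of 9 in ΔpetB/D and 0 of 12 in ΔpsaB, with 0 higher. 5 of 12 were lower and 1 higher in ΔpetN, 6 lower and 1 higher in ΔatpB/E, and 5 lower and 1 higher in as-ATPC. The 5 in ΔpetN include psbM, at −2.74. Of all 77 genes, 10 were lower and 9 higher in Δ3'-psbD, 5 and 6 in ΔpsbJ, 14 and 10 in ΔpetB/D, 0 and 0 in ΔpsaB, 17 and 20 in ΔpetN, 18 and 34 in ΔatpB/E, and 17 and 28 in as-ATPC. The medians of the list were −0.37, 0.046, −0.0066, −0.44, −0.47, −0.54 and −0.15 in this order of mutants, and those of all genes 0.022, 0.12, −0.15, 0.099, −0.049, 0.36 and 0.097.

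Of the nearest counted genes on either side, atpA RNA was called higher in ΔpsbJ (+1.14) and ΔpetN (+0.62) and lower in as-ATPC (−0.35). rps16 RNA was called lower in ΔpetN (−0.44), where psbK RNA was lower too, and in no other mutant, and it was higher in RB70 than in pRB8c, as was psbI RNA. In footprints atpA was lower in as-ATPC (−1.17), where the ATP synthase itself is targeted, and rps16 was higher in ΔpetN (+0.79) and ΔatpB/E (+1.31). Strand was not stated for the counting, and no annotated gene among the 78 overlaps psbK or psbI.

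By likeness of levels over the 10 lines (Pearson correlation of mean log2 CPM, as a description, with lines sharing depth and scaling), the footprints of psbK were most like those of psbL (0.88), psbI (0.83) and psbF (0.75). Those of psbI were most like psbL (0.93), psbK (0.83) and petL (0.80). psbL and psbF are small PSII genes of the psbE operon, and petL encodes a small cytochrome b6f subunit. In RNA the genes most like psbK were ccsA (0.91), psbF (0.86) and psbE (0.83), where ccsA acts in cytochrome c maturation. Those most like psbI were ndhC (0.78), ndhK (0.77) and ndhJ (0.70), neighbouring genes of the NDH complex. psbK and psbI correlated at 0.67 in RNA, where psbI ranked 5 among 77 genes for psbK and psbK ranked 8 for psbI.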

How the data were processed

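Footprints and total RNA were sequenced from 3 replicates of each of 10 tobacco lines. Per the submitters' notes the reads were handled with FastQC, cutadapt, STAR 2.7.1a, SAMtools and bedtools, and mapped in turn to rRNA and tRNA, chloroplast, mitochondrial and nuclear sequences. The authors deposited footprint counts per chloroplast reading frame, without the first 10 and last 30 nucleotides. For RNA-seq the authors deposited estimated counts, of which 94 of 2340 values were not whole and were rounded. A strand setting for counting was not stated. Their 60 RPKM columns, and 6 columns of library totals, served in no main test. RPKM for an alternative were computed from the counts and the reads mapped to all 3 genomes.

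Of 78 genes, 77 reached 10 counts in 3 or more libraries and were tested with edgeR 4.0.16 in R 4.3.3 (TMM factors within each kind of library, quasi-likelihood test, Benjamini-Hochberg adjustment over all 77 genes, called at 0.01 or less). Each comparison used its own 6 libraries, and translation efficiency was the interaction over 12 libraries. Standard errors were taken as the fold change over the root of F. The fit was first tested on simulated data. Ratios of psbK to psbI (pseudocount 0.5) were compared by two-sided exact permutation tests, and over all lines by permutation, with scipy 1.17.1. Intervals and standard errors cover the spread between the replicates, which the labels do not tie to separate plants. No pair of replicates agreed within counting noise. By the data and not the labels, deviations of same-numbered RNA libraries correlated in Δ3'-psbD against pRB8c (0.357 to 0.644) and weakly in ΔpsaB against RB70 (0.108 to 0.345). In other comparisons of a line with its control they ranged from −0.585 (as-ATPC, RNA) to 0.525 (Δ3'-psbD, footprints), so pairing was not established. Alternatives were other scalings, DESeq2 1.42.0, limma 3.58.1 on log2(RPKM + 1), no filter, the other control line, the replicate block and leaving out each library. RB70 against pRB8c under these settings was added after seeing the data. The genes, the PSII list (psbA, psbB, psbC, psbD, psbE, psbF, psbH, psbJ, psbL, psbM, psbT and psbZ) and the tests were chosen with earlier results of these data known. Besides psbK and psbI, the genes hit in a mutant, both neighbours, the 3 genes most like either in level and, in each comparison, the 2 called PSII genes with the largest RNA change could be named.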

Additional observations from a re-analysis of the deposited data

How the results depend on the processing

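Of 48 changes (psbK and psbI, 3 readouts, 8 comparisons with RB70 against pRB8c included), 42 of 42 kept direction and call without the filter on low counts, 47 of 48 with the replicate block, 40 with DESeq2 size factors, 38 with DESeq2, 27 with limma on RPKM, 20 with library sizes alone and 15 of 36 with the other control. All 14 ratios kept theirs with a pseudocount of 0. The cause of the changes below was not tested.

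With DESeq2, psbI RNA in Δ3'-psbD (0.50) and psbK efficiency in ΔatpB/E (0.62) lost their calls, psbK RNA in RB70 turned to −0.077, and calls were gained for psbI RNA in ΔpsaB (−1.11), psbI efficiency in ΔpetN (−0.63), psbI footprints in RB70 (0.72) and ΔatpB/E (−0.84), and psbK footprints in Δ3'-psbD (−0.51), ΔpetN (−0.63) and ΔpsaB (−0.90). With DESeq2 size factors in edgeR, calls were lost for psbI RNA in Δ3'-psbD (0.50) and ΔatpB/E (0.36), psbI efficiency in Δ3'-psbD (−0.81) and ΔpetB/D (−0.65), psbK RNA in ΔpsaB (−1.39) and psbK efficiency in ΔatpB/E (0.62). psbI footprints in ΔatpB/E (−0.84) gained one, and psbK RNA in RB70 turned to −0.077.

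With the other control, psbI RNA turned to −0.41 (Δ3'-psbD), −0.19 (ΔatpB/E), −0.77 (ΔpetB/D), −0.88 (ΔpetN), −0.40 (ΔpsbJ) and 0.25 (ΔpsaB). psbK efficiency turned to −0.29 (ΔatpB/E), −0.10 (ΔpetB/D), −0.13 (ΔpetN) and −0.20 (ΔpsbJ). psbI efficiency lost its calls (Δ3'-psbD −0.40, ΔatpB/E −1.04, ΔpetB/D −0.12, ΔpsbJ −0.36). Footprint calls were gained for psbI (Δ3'-psbD −0.81, ΔatpB/E −1.22, ΔpetB/D −0.89, ΔpetN −1.06) and psbK (Δ3'-psbD −0.93, ΔpetB/D −1.05, ΔpetN −1.24).

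With library sizes alone, psbK RNA lost its calls (Δ3'-psbD −0.29, ΔatpB/E −0.32, ΔpetB/D −0.25, ΔpetN −0.41, ΔpsaB −1.55, ΔpsbJ −0.092), as did psbI efficiency in Δ3'-psbD (−0.67) and ΔpetB/D (−0.35) and psbK efficiency in ΔatpB/E (0.48). Calls were gained for psbI RNA in ΔpetN (1.03), psbI efficiency (−1.07), psbI footprints (1.03), psbK RNA (0.89) and psbK footprints (0.93) in RB70, and psbK efficiency in as-ATPC (−0.51). Signs turned for psbI footprints (Δ3'-psbD 0.83, ΔatpB/E 0.31, ΔpetB/D 0.79, ΔpetN 0.47, ΔpsbJ 0.087), psbK footprints (Δ3'-psbD 0.62, ΔatpB/E 0.16, ΔpetB/D 0.55, ΔpetN 0.17), psbK efficiency in ΔpsbJ (−0.20) and, in as-ATPC, psbI RNA (0.24), psbI efficiency (−0.27) and psbK RNA (0.22).

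With limma on RPKM, signs turned for psbI RNA (0.14), psbK RNA (0.11) and psbI efficiency (−0.25) in as-ATPC, psbI footprints in ΔpsaB (−0.65), and psbK efficiency in RB70 (−0.39), Δ3'-psbD (−1.09), ΔatpB/E (−2.50), ΔpetB/D (−0.72), ΔpetN (−0.34) and ΔpsbJ (−0.29). psbK RNA lost its calls in Δ3'-psbD (−0.57), ΔpetB/D (−0.23), ΔpetN (−0.35) and ΔpsbJ (−0.15). Calls were gained for psbI RNA (1.08) and psbI efficiency (−1.45) in ΔpetN, psbI efficiency (−1.47) and psbK RNA (1.15) in RB70, psbI footprints in ΔatpB/E (−3.48), psbK efficiency in as-ATPC (−0.49) and psbK footprints in Δ3'-psbD (−1.66). The replicate block gained the call of psbI RNA in ΔpsaB (−1.28) and changed no other call. The block rests on shared replicate numbers, and pairing was not established in any comparison.

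Leaving out each library in turn left 231 of 288 changes and 80 of 84 ratios as they were. The ranges of those that did not hold were, for Δ3'-psbD, 0.67 to 0.81 (psbI RNA) and −1.21 to −0.91 (psbI efficiency). For ΔpsbJ they were −0.20 to 0.072 (psbI footprints), −1.07 to −0.54 (psbK RNA) and −1.16 to −0.79 (psbI efficiency). For ΔpetB/D the range was −1.09 to −0.75 (psbI efficiency), and for ΔpetN −0.76 to −0.33 (psbK footprints). For ΔpsaB they were −0.99 to −0.67 (psbK footprints), −0.0039 to 0.14 (psbI footprints), −1.66 to −1.32 (psbK RNA), −1.45 to −1.10 (psbI RNA), 1.10 to 1.59 (psbI efficiency) and −0.49 to 0.096 (RNA ratio). For as-ATPC they were −0.40 to −0.28 (psbK footprints), −0.13 to 0.051 (psbI footprints), −0.075 to 0.12 (psbI efficiency) and −0.11 to 0.012 (RNA ratio). For ΔatpB/E they were −0.93 to −0.56 (psbK footprints), −0.74 to −0.44 (psbI footprints), 0.42 to 0.58 (psbI RNA), 0.58 to 0.91 (psbK efficiency) and −1.21 to −0.91 (psbI efficiency). For RB70 they were 0.50 to 0.90 (psbK footprints), 0.55 to 0.90 (psbI footprints) and −0.20 to 0.15 (psbK RNA).

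The number of genes called moved with the setting by over 1.5 times in footprints and efficiency of most comparisons, from 0 to 46 (19 as reported) in Δ3'-psbD footprints and from 0 to 25 (7 as reported) in ΔpsaB RNA. Footprint libraries were shallow in both ΔpsaB (31328 to 146708 reading-frame counts) and ΔatpB/E (107032 to 138170), where 0 and 52 genes were called.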
